A study of Mus musculus with 6 samples.

Results

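The 10 smooth muscle contractile genes Acta2, Actg2, Tagln, Cnn1, Myl9, Tpm1, Tpm2, Cald1, Myh11 and Lmod1 were examined among 22180 genes measured on 6 Affymetrix arrays. They were chosen by symbol, and each gene was represented by the probe set with a single gene symbol and the highest mean over the 6 arrays. All 10 were found, each with 1 such probe set, so that no choice between probe sets had to be made. The RNA came from MC3T3-E1 cells (ATCC CRL-2593), a pre-osteoblast line derived from mouse calvaria. In 3 samples the medium held 1 µM NU7441, which blocks the kinase activity of DNA-PKcs, and 3 samples received the solvent DMSO. Both groups were grown to confluence, were given β-glycerophosphate at 10 mM together with ascorbic acid at 50 µg/ml to start osteoblast differentiation, and were harvested at day 14. The comparison asks how the inhibitor alters the transcripts of differentiating osteoblasts. All cells came from 1 line. Nothing in the labels tells separate cultures from repeat measurements of 1 culture, and a p-value here sets a difference against a spread that may be technical.

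Smooth muscle cells contract when myosin filaments pull on actin filaments. Phosphorylation of the regulatory light chain of myosin starts the pull, and tropomyosin, caldesmon and calponin lie along the actin filament and modulate it. Several of these genes are known targets of serum response factor, which binds the CArG box and works with the cofactors myocardin, MRTF-A and MRTF-B. Alpha smooth muscle actin and transgelin are also made by myofibroblasts and by cultured stromal and bone-forming cells, where they form stress fibres.

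The RefSeq promoter table (GRCm38.p6, 250 bases before to 50 after an annotated start) held 8 windows for 7 of the genes. No entry was found for Actg2, Tagln and Myh11. The CArG box, which is 2 Cs, 6 bases of A or T and 2 Gs and reads as the same motif on both strands, was searched exactly and with 1 G or C allowed among the 6 inner bases, here called CArG-like. An exact CArG box was in 1 of the 8 windows, that of Myl9, and in 1.63% of all 32851 windows of the table. A CArG-like match was in 2 of the 8, those of Acta2 and Myl9, and in 8.50% of all windows. The MCAT motif, GGAATG on either strand, bound by TEAD factors, was in 4 of the 8, those of Acta2, Tpm1, Lmod1 and 1 of the Cald1 windows, and in 14.7% of all windows. These are matches of letters in a short window and not sites shown to be bound. The windows of Acta2 (chr19:34255324-34255623, minus strand) and Myl9 (chr2:156775214-156775513, plus strand) are shown because they hold the CArG matches and because the signals of these 2 genes varied most alike over the arrays. Capitals mark the CArG, CArG-like and MCAT matches.
Acta2: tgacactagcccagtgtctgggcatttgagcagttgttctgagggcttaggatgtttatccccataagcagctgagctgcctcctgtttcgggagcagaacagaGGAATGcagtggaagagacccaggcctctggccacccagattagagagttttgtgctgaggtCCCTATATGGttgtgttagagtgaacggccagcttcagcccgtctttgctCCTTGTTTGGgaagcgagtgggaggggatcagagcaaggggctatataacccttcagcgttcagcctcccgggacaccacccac
Myl9: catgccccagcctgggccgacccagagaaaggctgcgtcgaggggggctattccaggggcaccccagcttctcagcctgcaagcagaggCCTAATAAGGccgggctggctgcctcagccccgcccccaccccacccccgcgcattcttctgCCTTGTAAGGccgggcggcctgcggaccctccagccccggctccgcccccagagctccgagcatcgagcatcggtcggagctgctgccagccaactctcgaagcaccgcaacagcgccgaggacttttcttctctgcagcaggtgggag
In the Acta2 window the CArG-like matches CCCTATATGG and CCTTGTTTGG began 84 and 34 bases before the start, and the MCAT match 146 bases before it. In the Myl9 window the exact CArG box CCTAATAAGG began 161 bases before the start and the CArG-like match CCTTGTAAGG 99 bases before it. In both windows the start used lies inside the gene's RefSeq span, chr19:34240336-34255585 for Acta2 and chr2:156775408-156781657 for Myl9. The distances are from that start and not from the outermost start of the gene.

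Array medians lay between 6.38 and 6.42 and maxima between 13.94 and 13.96 on the log2 scale, and any pair of arrays correlated at 0.989 to 0.993 over probe sets. The markers fixed for the labelled cell, Col1a1, Alpl, Bglap, Ibsp, Sp7 and Pth1r, lay between 6.36 and 13.53. The 4 endothelial markers Pecam1, Cdh5, Kdr and Tek stayed below the array medians on average, their values lying between 5.07 and 6.47. Of the 5 pericyte markers 4 were below the median too. The exception, named for its level, was Cspg4, at 9.11, 9.35 and 9.90 with NU7441 and 9.09, 8.88 and 9.90 with DMSO. Of the 19 striated muscle genes 14 were on average below the median taken over genes. That is a higher cut than the array medians given above, which are over probe sets. The mean over the striated list ranged from 6.29 to 6.31 with NU7441 and from 6.28 to 6.30 with DMSO. In RNA of whole cultures, fewer cells of a type and less RNA per cell cannot be told apart.

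None of the 10 contractile genes passed in limma at a threshold of 0.05 on the adjusted p: 0 of the 10 were called, and 0 of all genes (0.00%). At an unadjusted p under 0.05 there was 1 of the 10, Actg2, where 6.79% of all genes had such a p, 3.30% lower with NU7441. With NU7441 3 of the 10 were higher and 7 lower, against 51.3% higher among all genes. The median log2 difference, NU7441 minus DMSO, was -0.05 over the 10 and 0.0036 over all genes. The upper 50 percent of genes by level held all of the 10 but Cnn1, and had a median difference of -0.0187. In limma 643 genes of that upper 50 percent were lower and 290 higher at an unadjusted p under 0.05. The values of the 3 NU7441 arrays and of the 3 DMSO arrays overlapped in all 10 genes, where 12.8% of all genes had groups that did not overlap. The 95% interval of the difference lay within 2-fold in either direction for all 10, and within 0.5 on the log2 scale for 7 of them, the exceptions being Actg2, Tagln and Tpm2. For comparison, 99.2% and 87% of all genes met these limits.

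**Figure D1:**
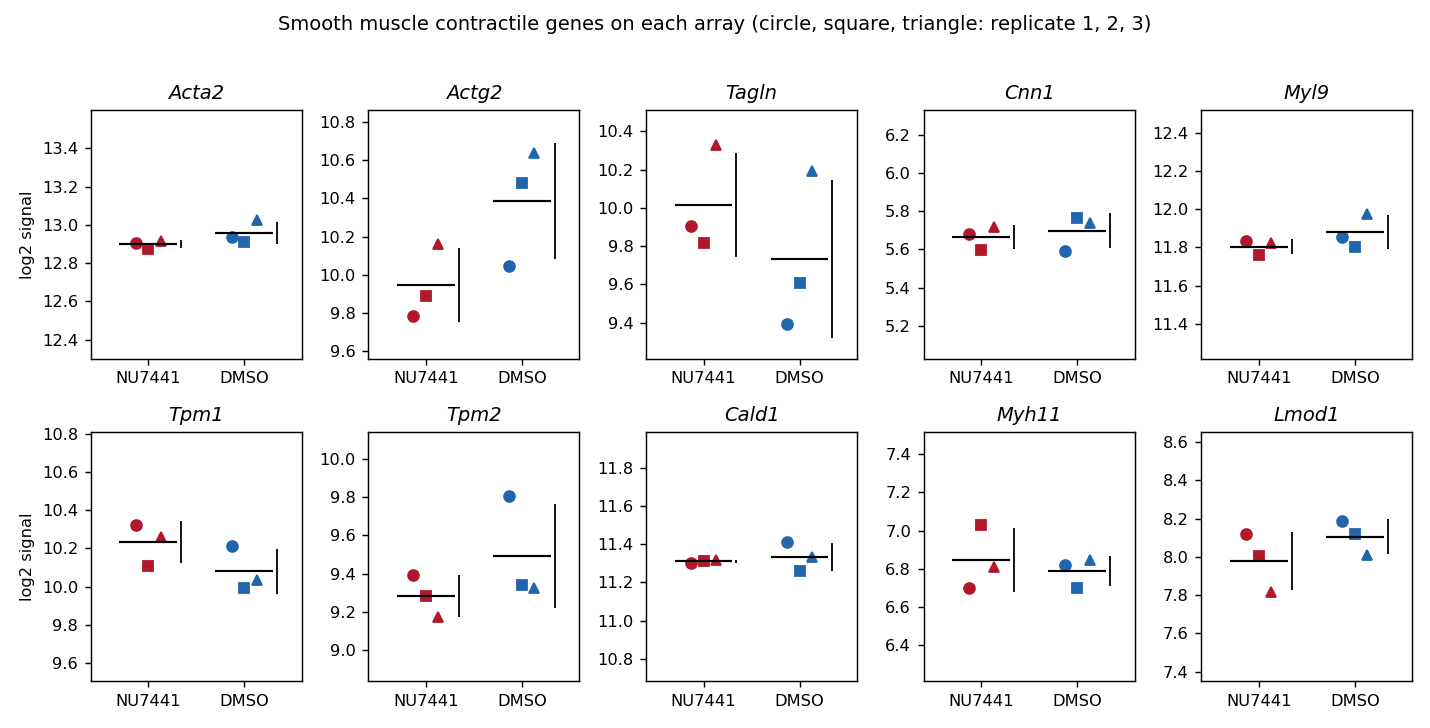
Log2 signal of the 10 contractile genes (vertical axes, each panel spanning 1.3 log2 units) on the 3 NU7441 arrays (red, left) and the 3 DMSO arrays (blue, right). Symbols stand for replicate numbers, horizontal lines for group means and vertical lines for the SD; Actg2 and Tagln spread widest, over 0.85 and 0.93 log2 units, and the groups overlap in every panel.

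Of the 2 actins, Acta2, alpha smooth muscle actin, had log2 signals of 12.91, 12.87 and 12.92 in NU7441 samples 1 to 3, against 12.93, 12.91 and 13.02 in DMSO samples 1 to 3. The groups overlapped by a narrow margin, NU7441 3 lying just above DMSO 2. Acta2 averaged 12.90 ± 0.02 with NU7441 and 12.96 ± 0.06 with DMSO (SD, n = 3 each), a difference of -0.06 (SE 0.06, limma adjusted p = 0.888). The arrays' brightest probe sets were at 13.94 to 13.96, and close to that ceiling a change in transcript may show as a smaller change in signal.

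Actg2, the gamma actin of enteric smooth muscle, showed the largest difference of the 10. Its log2 signals were 9.79, 9.89 and 10.16 in NU7441 samples 1 to 3, against 10.05, 10.48 and 10.64 in DMSO samples 1 to 3. The overlap came from DMSO 1, which lay below NU7441 3. Actg2 averaged 9.95 ± 0.19 with NU7441 and 10.39 ± 0.30 with DMSO (SD, n = 3 each), a difference of -0.44 (SE 0.17, 95% interval -0.83 to -0.05), or 0.736-fold. It did not pass over all genes (limma unadjusted p = 0.0318, adjusted p = 0.714). Same-numbered arrays differed by -0.26, -0.59 and -0.48, so Actg2 was lower with NU7441 in 3 of 3 numbered pairs. With the replicate number as a block the adjusted p was 0.448, and with the block, an intensity trend and a robust prior together it was 0.0416. This last setting called 100 genes (0.451%), 61 of them lower (0.275%), and Actg2 was the only 1 of the 10 among them. Over the settings without that combination the adjusted p of Actg2 lay between 0.448 and 0.934. Acta2 and Actg2 encode proteins of very similar sequence, and whether their probe sets bind each other's transcripts was not tested.

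Of the myosin subunits, Myl9, the regulatory light chain, had log2 signals of 11.83, 11.76 and 11.82 in NU7441 samples 1 to 3, against 11.86, 11.80 and 11.98 in DMSO samples 1 to 3. All values lay within 0.22 of each other, with DMSO 3 the highest. The difference was -0.07 (SE 0.07, limma adjusted p = 0.867). Myh11, the heavy chain of smooth muscle myosin and a marker of the mature muscle cell, had 6.70, 7.03 and 6.81 in NU7441 samples, against 6.82, 6.70 and 6.85 in DMSO samples. NU7441 2 stood above the other 5 values, and the difference of 0.06 (SE 0.10, adjusted p = 0.931) turned to -0.03 without it. Myh11 was between the arrays' medians and their upper quartiles of 8.26 to 8.32.

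The 2 tropomyosins, which wind along the actin filament, differed in opposite directions and neither passed. Tpm1 had log2 signals of 10.32, 10.11 and 10.26 in NU7441 samples 1 to 3, against 10.21, 9.99 and 10.04 in DMSO samples 1 to 3. NU7441 2 fell among the DMSO values. The difference was 0.15 (SE 0.09, limma adjusted p = 0.799), and Tpm1 was higher with NU7441 by 0.11, 0.12 and 0.23 in the numbered pairs. Tpm2 had 9.39, 9.28 and 9.17 in NU7441 samples, against 9.81, 9.34 and 9.32 in DMSO samples. DMSO 1 stood above the other 5 arrays, and the difference of -0.21 (SE 0.14, adjusted p = 0.824) was -0.05 without it.

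Tagln, transgelin or SM22, an actin-binding protein that appears early in smooth muscle cells, showed the largest positive difference. Its log2 signals were 9.90, 9.82 and 10.33 in NU7441 samples 1 to 3, against 9.40, 9.61 and 10.19 in DMSO samples 1 to 3. The array numbered 3 was the highest of both groups, and DMSO 3 lay above NU7441 1 and 2. Tagln averaged 10.02 ± 0.27 with NU7441 and 9.73 ± 0.41 with DMSO (SD, n = 3 each), a difference of 0.28 (SE 0.22, limma adjusted p = 0.840). Within the numbered pairs it was higher with NU7441 by 0.51, 0.21 and 0.13. With the replicate number as a block the SE was 0.09, with an unadjusted p of 0.0295 and an adjusted p of 0.503 in limma. In that fit 2 of the 10 genes, Tagln and Actg2, had an unadjusted p under 0.05, where 9.37% of all genes did. Without DMSO 1 the difference of Tagln was 0.12, without NU7441 3 it was 0.13 and without DMSO 3 it was 0.52.

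The array numbered 3 was also the highest of each group for Sp7, the osteoblast transcription factor osterix. Sp7 had log2 signals of 10.46, 10.67 and 11.16 in NU7441 samples 1 to 3 and of 10.04, 9.96 and 10.69 in DMSO samples 1 to 3. All 6 osteoblast markers were higher with NU7441, in all 3 numbered pairs, with a median log2 difference of 0.54 and 0 called by limma. The median was 0.34 without NU7441 3 and 0.82 without DMSO 3. Alpl, the alkaline phosphatase of osteoblasts, had log2 signals of 9.72, 9.75 and 10.31 in NU7441 samples 1 to 3 and of 9.24, 9.14 and 9.76 in DMSO samples 1 to 3, a difference of 0.54 (SE 0.21, limma adjusted p = 0.718). In limma with the replicate block, an intensity trend and a robust prior, 4 of the 6 were called, where 0.451% of all genes were. They were Pth1r (adjusted p = 0.00262), Ibsp (0.00755, named because it was called), Alpl (0.00823) and Sp7 (0.0172). The mean level of all 6 osteoblast markers ranged from 10.46 to 11.17 over the NU7441 arrays and from 9.91 to 10.69 over the DMSO arrays. Whether the state of differentiation of the cultures had a part in the values of Tagln was not tested.

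Of the other 3 regulators of the actin filament, Cald1 and Cnn1 differed little and Lmod1 by more. Cald1, caldesmon, which holds back the myosin motor on actin, had log2 signals of 11.30, 11.31 and 11.32 in NU7441 samples, against 11.41, 11.26 and 11.33 in DMSO samples. The NU7441 values lay inside the range of the DMSO values, and the difference was -0.02 (SE 0.07, limma adjusted p = 0.959). Cnn1, calponin 1, which binds actin and is a marker of contractile smooth muscle, had 5.68, 5.59 and 5.72 in NU7441 samples, against 5.59, 5.76 and 5.74 in DMSO samples. Cnn1 was the 1 gene of the 10 below the arrays' medians and lay not far above their lower quartiles of 5.11 to 5.16, so a change in a weakly expressed transcript may not show in its difference of -0.03 (SE 0.07, adjusted p = 0.949).

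Lmod1, leiomodin 1, which starts new actin filaments in smooth muscle, had log2 signals of 8.12, 8.00 and 7.82 in NU7441 samples 1 to 3, against 8.19, 8.12 and 8.01 in DMSO samples 1 to 3. NU7441 1 lay among the DMSO values, NU7441 2 just below the lowest of them and NU7441 3 was the lowest of all. The difference was -0.13 (SE 0.10, limma adjusted p = 0.833), with -0.07, -0.12 and -0.20 in the numbered pairs. It was -0.05 without NU7441 3 and -0.20 without NU7441 1.

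**Figure D2:**
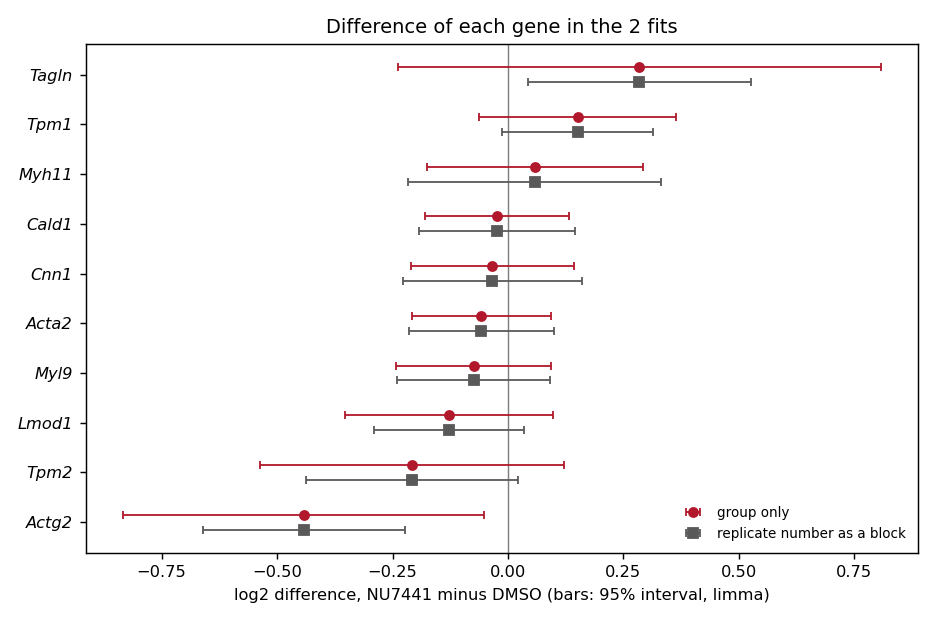
Log2 difference, NU7441 minus DMSO, of each contractile gene (horizontal axis) with its 95% interval from limma, fitted with the group only (red circles) and with the replicate number as a block (grey squares). With the group only, the interval of Actg2, -0.83 to -0.05, is the one that leaves out 0; with the block those of Actg2, -0.66 to -0.22, and Tagln, 0.04 to 0.53, do.

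Set by numbered pair, 5 of the 10 genes were lower with NU7441 in all 3 pairs: Acta2, Actg2, Myl9, Tpm2 and Lmod1. Another 2, Tagln and Tpm1, were higher in all 3. Among all genes 16.6% were lower and 16.0% higher in all 3 pairs. These shares were not taken over the upper 50 percent of genes by level, which held all of the 10 but Cnn1. Cnn1, Cald1 and Myh11 changed sign between pairs, Myh11 from -0.12 in the pair numbered 1 to 0.33 in the pair numbered 2.

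**Figure D3:**
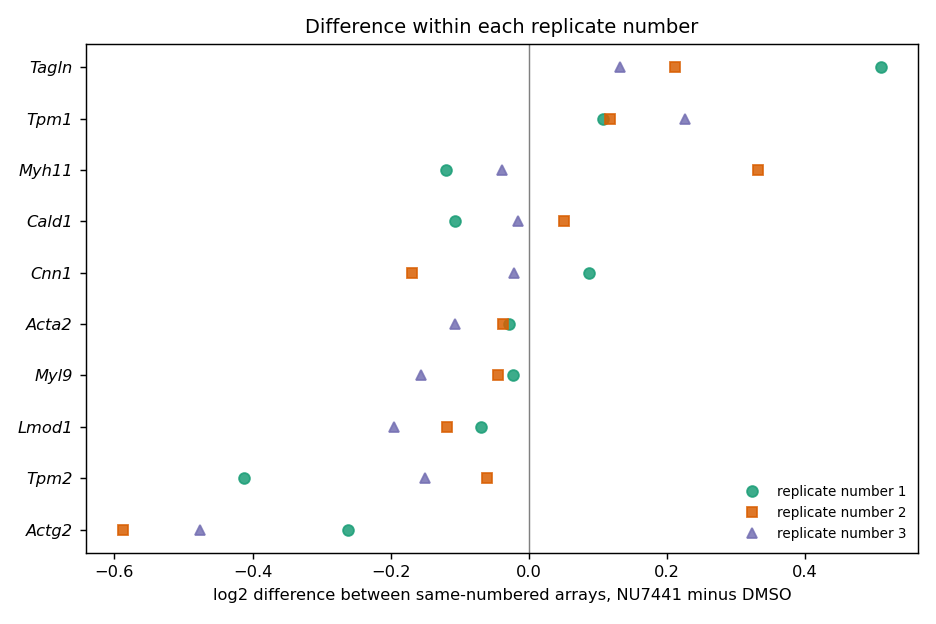
Log2 difference between same-numbered arrays, NU7441 minus DMSO, for each contractile gene; each symbol is 1 pair of arrays (green circle 1, orange square 2, purple triangle 3). Tagln and Tpm1 have all 3 symbols above 0, Acta2, Actg2, Myl9, Lmod1 and Tpm2 have all 3 below 0, and Cnn1, Cald1 and Myh11 have symbols on both sides.

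The 10 genes did not vary as 1 block over the 6 arrays. Of the 45 pairs of genes 23 had a Pearson correlation above 0, with a median of 0.049. These values describe 6 arrays that share their treatment groups and their normalization. The highest correlation, 0.982, was between Acta2 and Myl9, whose values spanned only 0.15 and 0.22 log2 units, with DMSO 3 the highest for both. Whether the CArG matches in their promoter windows had a part in it was not tested, and Actg2, Tagln and Myh11 had no window. Tpm2 correlated at 0.781 with Lmod1 and at 0.756 with Cald1, and Acta2 at 0.742 with Actg2. At the other end, Tagln correlated at -0.861 with Lmod1 and at -0.786 with Tpm2, and Actg2 at -0.762 with Tpm1. The mean of the 10 genes, each centred on its own mean, was highest in DMSO 3, at 0.09, and lowest in NU7441 2, at -0.05. Among 601 other named genes with an SD of at least 0.3 over the 6 arrays, those most like this mean were Egln3 (Pearson r = 0.970), Rtkn2 (0.964), Brinp3 (0.948), Cd300lb (0.947) and Epha3 (0.934), over 6 arrays.

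Genes that work with the contractile genes were grouped by role, and limma called 0 members of any list over all genes. For comparison with the counts below, 51.3% of all genes were higher with NU7441, with a median log2 difference of 0.0036. Transcriptional regulators of smooth muscle genes were lower in 10 of 12, with a median log2 difference of -0.06. Srf itself had 9.74, 9.74 and 9.67 in NU7441 samples, against 9.71, 9.88 and 9.84 in DMSO samples, a difference of -0.10 (SE 0.07, limma adjusted p = 0.830). Its cofactors differed by -0.01 for Myocd, -0.01 for Mrtfa and 0.03 for Mrtfb. Myocd, the muscle-restricted cofactor myocardin, lay between 5.99 and 6.34 and so below every array's median. The smallest p of the list was that of Fhl2, a LIM domain cofactor, at -0.22 (SE 0.08, adjusted p = 0.699).

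Mylk, the kinase that phosphorylates the regulatory light chain of myosin, had 9.89, 9.99 and 9.77 in NU7441 samples 1 to 3, against 9.86, 9.61 and 9.78 in DMSO samples 1 to 3. DMSO 2 was the lowest and the groups overlapped. The difference was 0.13 (SE 0.09, limma adjusted p = 0.830), or 0.06 without DMSO 2 and 0.08 without NU7441 2.

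Genes of focal adhesions and other serum response factor targets were lower in 12 of 14, with a median log2 difference of -0.07. Of all genes 51.3% were higher. The upper 50 percent of genes by level held 12 of these 14 and 10 of the 12 regulators. Over that upper 50 percent the median difference was -0.0187. In limma 643 of those genes were lower and 290 higher at an unadjusted p under 0.05. In 4 of the 14, Zyx, Tgfb1i1, Fblim1 and, named after its values were seen, Actn1, all NU7441 values lay below all DMSO values, where 6.64% of all genes were so. Zyx, the adhesion protein zyxin, differed by -0.29 (SE 0.11), with 10.16, 10.10 and 9.85 in NU7441 samples and 10.25, 10.51 and 10.22 in DMSO samples. Tgfb1i1, the adhesion adaptor Hic-5, differed by -0.22 (SE 0.07). Neither passed (limma adjusted p = 0.719 for Zyx and 0.698 for Tgfb1i1).

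Other genes high in smooth muscle were higher in 5 of 10 and lower in 5, with a median log2 difference of 0.0037. Pgm5, a protein of adherens junctions related to phosphoglucomutase, had 8.46, 8.28 and 8.40 in NU7441 samples, against 8.87, 9.04 and 8.76 in DMSO samples. All 3 NU7441 values lay below all 3 DMSO values, and the difference was -0.51 (SE 0.09, limma adjusted p = 0.598). Aoc3, an amine oxidase of vessel walls, differed by -0.43 (SE 0.16) and Itga8, an integrin subunit, by -0.28 (SE 0.18). In 2 of the 10, Pgm5 and Aoc3, the NU7441 values all lay below the DMSO values, where 6.64% of all genes were so.

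Non-muscle relatives of the contractile genes were lower in 9 of 15, with a median of -0.03. Myh10, a heavy chain of non-muscle myosin, differed by 0.17 (SE 0.07) and Myl12a, a non-muscle regulatory light chain, by 0.24 (SE 0.11). Myl6, an essential light chain of myosin, differed by -0.14 (SE 0.08) and Actg1, the cytoplasmic gamma actin, by -0.10 (SE 0.06). The striated muscle genes were lower in 8 of 19. Tnni1, slow skeletal troponin I, had the smallest p of these, with 6.48, 6.45 and 6.43 in NU7441 samples and 6.60, 6.65 and 6.62 in DMSO samples. All 3 NU7441 values lay below all 3 DMSO values, a difference of -0.17 (SE 0.06, limma adjusted p = 0.706). Tnnc1, slow and cardiac troponin C, differed by -0.30 (SE 0.12). In 3 of the 19, Tnni1, Tnnc1 and Actc1, the NU7441 values all lay below the DMSO values, where 6.64% of all genes were so. Fibroblast and myofibroblast genes were lower in 8 of 12. Lox, which crosslinks collagen, differed by -0.22 (SE 0.09) and Tgfb1, a growth factor that induces smooth muscle actin in fibroblasts, by 0.24 (SE 0.10).

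**Figure D4:**
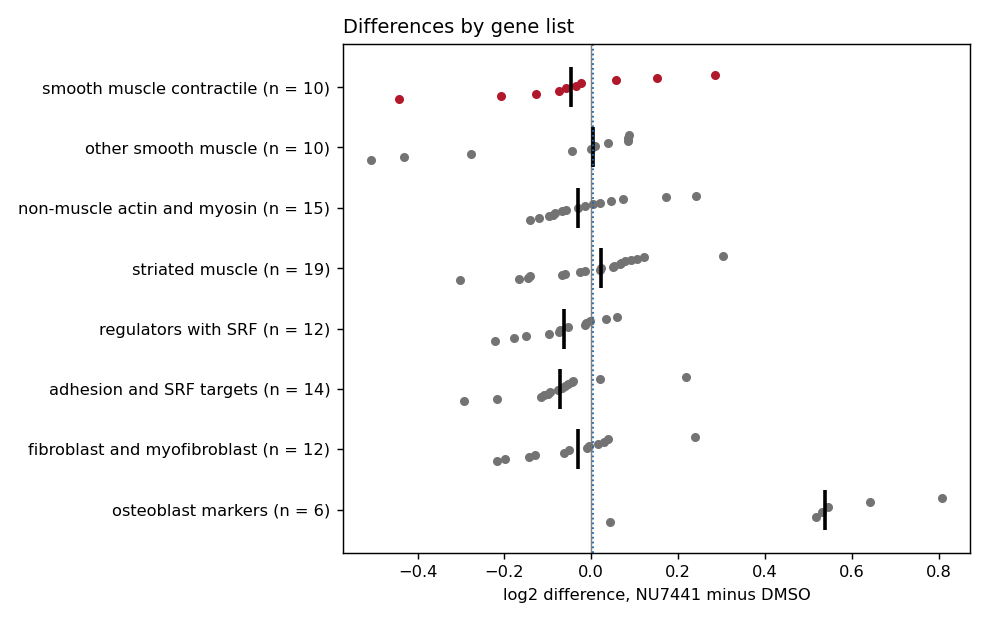
Log2 difference, NU7441 minus DMSO, of every measured gene of the contractile group (red) and of 7 related lists (grey), 1 point per gene. Black bars are list medians and the dotted line is the median of all genes, 0.0036; the contractile genes spread from -0.44 to 0.28 around a median of -0.05, while the 6 osteoblast markers have a median of 0.54.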

How the data were processed

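Total RNA of whole MC3T3-E1 cells was hybridised to 6 Affymetrix arrays with a biotin label, per the labels. The deposited table holds log2 signal, a scale inferred from its values, and how the authors corrected, summarised and normalized the arrays is not given here. Column names were the samples' own identifiers, and 0 columns of other samples were present.

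Of 41345 probe sets, 23521 had 1 gene symbol in the platform annotation, 1814 had several and 16010 none here. The brightest single-symbol probe set of each gene was kept, with no filter on level. NU7441 was compared with DMSO in limma 3.58.1 under R 4.3.3 (two-sided, lmFit then eBayes with a term for the group alone), and p-values were adjusted by Benjamini-Hochberg over 22180 genes and a threshold of 0.05. The number of arrays limits the precision.

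Both groups carry replicate numbers 1 to 3. The deviations of same-numbered arrays from their group means correlated at 0.149, 0.169 and 0.339 over genes, and those of different numbers at -0.246 to 0.094, which meets the criterion set for pairing (every same-number correlation above 0.1). No label states a pairing, and the fit reported has none. The number as a block, with and without an intensity trend and robust prior, array weights, other scalings, filters on dim genes, the mean of probe sets and leaving out each array were alternatives.

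The members and lists were chosen with earlier results of these data known, so they support nothing by themselves. All 10 members were described. Genes named from a list were among its 4 with the smallest p, with Srf, Myocd, Mrtfa, Mrtfb and Mylk in any case, and Actn1 and Ibsp were named after their values were seen. Of the listed genes 107 of 107 were measured, and 1 further list is not reported here. Promoters came from RefSeq (GRCm38.p6). Plots used matplotlib 3.10.9 and Python 3.11.15.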

Additional observations from a re-analysis of the deposited data

How the results depend on the processing

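Over 15 alternatives, 145 of 149 recomputed differences of single contractile genes kept their sign and 4 reversed (Cnn1 has no value among the upper 50 percent of genes by level). Many of the 145 could not do otherwise. The block, the prior, the filters on level and the mean of probe sets leave the difference of each contractile gene as it was. Only array weights, the other scalings and leaving out an array could change a sign. With the replicate block, limma again called 0 genes, the adjusted p of Actg2 being 0.448, and the block alone changed no call. With the replicate block, an intensity trend and a robust prior, 100 genes were called, among them 1 contractile gene, Actg2, at -0.44, and 5 genes of the other lists, Alpl, Ibsp, Sp7, Pth1r and Fabp4. The cause was not tested. With quantile normalization Cald1 differed by 0.0153, and with each array centred on its median 1 contractile gene, Acta2, had groups that did not overlap, as did 13.2% of all genes. Leaving out 1 array, which leaves fewer values to overlap, gave 1 to 3 of the 10 genes with groups that did not overlap, and 21.2% to 25.1% of all genes. It moved the difference of Cnn1 between -0.0868 and 0.0002, of Cald1 between -0.0604 and 0.0139 and of Myh11 between -0.0344 and 0.13, with 0 genes called. It moved Actg2 between -0.61, without DMSO 1, and -0.32, without DMSO 3. Acta2 lay between -0.08, without DMSO 2, and -0.02, without DMSO 3, and Myl9 between -0.11 and -0.03 without the same arrays. The median of the 10 differences lay between -0.07 and -0.02 over all alternatives. No alternative moved the median of all genes by more than 0.022. Signal over background was not analysed here, which limits what can be said of Cnn1.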

Other observations

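Among markers of other cells, Fabp4, a fatty acid carrier of adipocytes and macrophages, had log2 signals of 4.57, 5.04 and 5.00 in NU7441 samples 1 to 3, against 5.65, 6.23 and 5.72 in DMSO samples 1 to 3. All 3 NU7441 values lay below all 3 DMSO values, a difference of -0.99 (SE 0.19, limma adjusted p = 0.598, or 0.0211 with the replicate block, an intensity trend and a robust prior), and all 6 lay below the arrays' medians. Adipoq, the adipocyte hormone adiponectin, was between 4.96 and 5.38, with a difference of 0.08. Cebpa, another of the adipocyte markers, was between 7.68 and 7.92, above every array's median. Of the 5 adipocyte markers 4 were higher with NU7441 and Fabp4 alone was lower, with a median log2 difference of 0.06. Cd68, a lysosomal protein of macrophages, differed by -0.23 (SE 0.19) and lay between 7.45 and 8.13, above every array's median. Ptprc, the pan-leukocyte marker, was between 4.49 and 4.74 on all arrays. The macrophage list held 2 higher and 2 lower genes, with a median log2 difference of -0.017. Thy1, a surface protein of fibroblasts, differed by -0.20 (SE 0.09, limma adjusted p = 0.734).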
